A study of Mus musculus with 6 samples.

Results

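The IgLON family is a set of cell adhesion proteins of the neuronal surface, and its 5 mouse genes are Negr1, Lsamp, Ntm, Opcml and Iglon5. The members are the complete gene family, taken by name without a filter on their values. The family itself was chosen with earlier results of these data known. The count tables hold 55401 genes, of which 19969 had counts high enough to be tested, and all 5 IgLON genes were among them. RNA from the dorsal hippocampus was sequenced in 6 samples from male wild-type (WT) mice, of which 3 were from Control-ASO and 3 from Snhg11-ASO injections. Antisense oligonucleotides (ASOs) are synthetic strands that pair with an RNA, and gapmers direct RNase H to cut it. Snhg11-ASO targets the long noncoding RNA Snhg11, and Control-ASO is a gapmer of equal length with a scrambled sequence. The mice were WT littermates from the Ts65Dn colony, on a B6EiC3 hybrid background, so no animal in either group was trisomic. At 4 months of age, 50 µg was infused into the dorsal dentate gyrus (DG) of each hemisphere, and tissue was taken 3 days later. A single Snhg11-ASO sequence was used, so the loss of Snhg11 and other effects of that molecule cannot be told apart.

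Each IgLON protein carries immunoglobulin domains and is held on the outer face of the membrane by a glycosylphosphatidylinositol (GPI) anchor, so it has no cytoplasmic tail. IgLON proteins bind each other in pairs, as the same or as different members, on one cell or between cells. In the hippocampus they are known for roles in neurite outgrowth, in the formation of synapses and, for Negr1, in the generation of new neurons in the adult DG. Lsamp is the limbic system-associated membrane protein, Ntm is neurotrimin, Opcml is the opioid-binding cell adhesion molecule, Negr1 is neuronal growth regulator 1, and Iglon5 is the target of autoantibodies in a human sleep and movement disorder.

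The 5 genes are related but distinct at the level of sequence. The 60-base coding window with the most bases common to the family is shown, as written in GENCODE M21 transcripts on GRCm38, with capitals at the 29 positions that are identical in all 5 genes. It lies in exon 3 of 7 of Negr1 (chr3:157016215-157016274, plus strand), exon 5 of 9 of Lsamp (chr16:41955260-41955319, plus), exon 4 of 8 of Ntm (chr9:29109429-29109488, minus), exon 3 of 7 of Opcml (chr9:28813320-28813379, plus) and exon 4 of 8 of Iglon5 (chr7:43478141-43478200, minus).
Negr1: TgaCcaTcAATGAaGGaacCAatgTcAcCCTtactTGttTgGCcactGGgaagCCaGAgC
Lsamp: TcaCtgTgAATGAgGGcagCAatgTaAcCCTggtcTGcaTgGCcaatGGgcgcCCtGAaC
Ntm: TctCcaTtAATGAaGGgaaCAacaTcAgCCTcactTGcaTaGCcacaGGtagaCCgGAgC
Opcml: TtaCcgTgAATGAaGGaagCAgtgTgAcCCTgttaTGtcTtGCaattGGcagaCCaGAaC
Iglon5: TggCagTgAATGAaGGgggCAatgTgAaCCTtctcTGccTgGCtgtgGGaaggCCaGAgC
Even in this window the other members matched Negr1 at only 66.7% (Lsamp and Iglon5), 70.0% (Opcml) and 71.7% (Ntm) of bases. Over the whole coding sequence, identity ran from 57.1% between Negr1 and Iglon5 to 71.2% between Ntm and Opcml. The longest run of identical bases between transcripts of any 2 members was 12 to 35 bases for 9 of the 10 pairs, which is shorter than the 50-base reads. Reads of Negr1, Lsamp and Iglon5 could therefore be told from those of the rest of the family.

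The tenth pair was an exception. Ntm and Opcml are neighbours on chromosome 9 that point toward each other, and an alternative first exon of each begins with the same coding sequence. The shared coding run is 95 bases long, starts at the first coding base of Ntm-202 (chr9:29411628-29411722, minus strand) and of Opcml-201 (chr9:28404246-28404340, plus strand), and is shown because read pairs that lie wholly inside it map to both genes.
Ntm and Opcml: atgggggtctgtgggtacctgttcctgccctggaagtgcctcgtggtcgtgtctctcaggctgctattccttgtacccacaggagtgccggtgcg
It is present in 2 of 5 coding transcripts of Ntm and 1 of 2 of Opcml, and with the bases before it the identical run reached 124 bases in the transcripts. Such pairs count as multi-mapping and are left out of both genes, so the values of Ntm and Opcml rest on the rest of their exons.

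Snhg11 was read first as a check of the labels. Control-ASO replicates 1, 2 and 3 had 551, 436 and 209 CPM (counts per 1e6 of the library size over tested genes, with its TMM factor), and Snhg11-ASO replicates 1, 2 and 3 had 139, 65.4 and 69.4 CPM. The groups did not overlap, and the mean in Snhg11-ASO was 22.9% of that in Control-ASO (log2 fold change -2.13, standard error (SE) 0.43; adjusted p = 0.395 by the quasi-likelihood test of edgeR and 5.3e-05 by DESeq2, each adjusted by Benjamini-Hochberg over all genes). Libraries held 28951250 to 43997537 counts on genes, all higher in Snhg11-ASO. Snhg11-ASO replicate 1 stood apart, with rank correlations across genes of 0.960 and 0.958 with the other Snhg11-ASO libraries, against 0.991 between those. Over all genes, edgeR called 0 of 19969 at an adjusted p under 0.05 (0% of genes; 1619 had an unadjusted p under 0.05, 885 of them lower in Snhg11-ASO), and DESeq2 called 256.

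The 4 larger IgLON genes, Negr1, Lsamp, Ntm and Opcml, were lower in every Snhg11-ASO library than in any Control-ASO library, at 54.4% to 65.3% of the Control-ASO mean, whereas the groups overlapped for Iglon5. None of the 5 passed the adjusted threshold in edgeR. Lower values without overlap were found for 7.7% of all genes tested, an unadjusted p under 0.05 with a lower value for 4.43%, and a DESeq2 call with a lower value for 0.816%. The same 4 of 5 members met each of these. In tissue RNA, fewer cells of a type and less RNA per cell cannot be told apart. The study named Negr1 as lower both in nuclei of the trisomic DG and in these same samples, of which it left out 1. The direction of Negr1 here is therefore no independent evidence.

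Negr1 (ENSMUSG00000040037, chr3:156561794-157316445, plus strand, 755 kb from start to end) was counted at 154, 113 and 137 CPM in Control-ASO replicates 1, 2 and 3. In Snhg11-ASO it had 78.4, 99.3 and 85.9 CPM. The highest Snhg11-ASO library, replicate 2, lay below the lowest Control-ASO library, also replicate 2, so the groups were separate but close at that number. The mean was 135 ± 20.4 against 87.9 ± 10.6 CPM (SD, n = 3 per group). The log2 fold change was -0.62 (SE 0.14, 95% interval -0.95 to -0.28), with an adjusted p of 0.443 in edgeR and 0.0255 in DESeq2, both after Benjamini-Hochberg adjustment over all genes. An exact two-sided permutation test over the samples gave p = 0.1 for each of the 4 separated members, the smallest value that 3 against 3 allows.

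Lsamp (ENSMUSG00000061080, chr16:39984361-42181679, plus strand, 2197 kb) was the most abundant member and the one with the largest difference. Its values were 465, 433 and 323 CPM in Control-ASO and 236, 233 and 196 CPM in Snhg11-ASO, in the order of replicates. Replicate 3 was the lowest library of both groups, and the groups were far apart. The mean was 407 ± 74.5 against 222 ± 22.2 CPM (SD, n = 3 per group), which gave a log2 fold change of -0.88 (SE 0.16, 95% interval -1.25 to -0.51; adjusted p = 0.308 in edgeR and 3.1e-04 in DESeq2).

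Ntm (ENSMUSG00000059974, chr9:28994750-29963141, minus strand, 968 kb) had 85.9, 87.7 and 103 CPM in Control-ASO and 49.1, 62.2 and 58.9 CPM in Snhg11-ASO. Snhg11-ASO replicate 1 was the lowest, and the other Snhg11-ASO libraries were still well below every Control-ASO library. The mean was 92.2 ± 9.27 against 56.7 ± 6.78 CPM (SD, n = 3 per group), which gave a log2 fold change of -0.70 (SE 0.12, 95% interval -0.99 to -0.41; adjusted p = 0.308 in edgeR and 0.00102 in DESeq2).

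Opcml (ENSMUSG00000062257, chr9:27790775-28925410, plus strand, 1135 kb) had 265, 302 and 253 CPM in Control-ASO and 136, 207 and 170 CPM in Snhg11-ASO. Replicate 2 was the highest library in both groups and replicate 1 of Snhg11-ASO the lowest. The mean was 273 ± 25.5 against 171 ± 35.6 CPM (SD, n = 3 per group), which gave a log2 fold change of -0.68 (SE 0.16, 95% interval -1.06 to -0.29; adjusted p = 0.464 in edgeR and 0.0260 in DESeq2).

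Iglon5 (ENSMUSG00000013367, chr7:43472904-43490075, minus strand) is the short and weakly expressed member, with a span of 17.2 kb. It had 7.78, 11.9 and 9.74 CPM in Control-ASO and 10.2, 10.4 and 10.4 CPM in Snhg11-ASO, on 229 to 455 counts a library. All Snhg11-ASO libraries lay within the range of the Control-ASO libraries. The log2 fold change was 0.08 (SE 0.18, 95% interval -0.35 to 0.50; adjusted p = 0.929 in edgeR and 0.953 in DESeq2), and the exact permutation p was 0.7. That interval did not reach the point estimates of the other members, all of which were -0.62 or lower. It did overlap the 95% intervals of Negr1 (-0.95 to -0.28) and Opcml (-1.06 to -0.29), though not those of Lsamp and Ntm. The log2 fold change of Iglon5 turned to -0.07 without Control-ASO replicate 1.

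**Figure D1:**
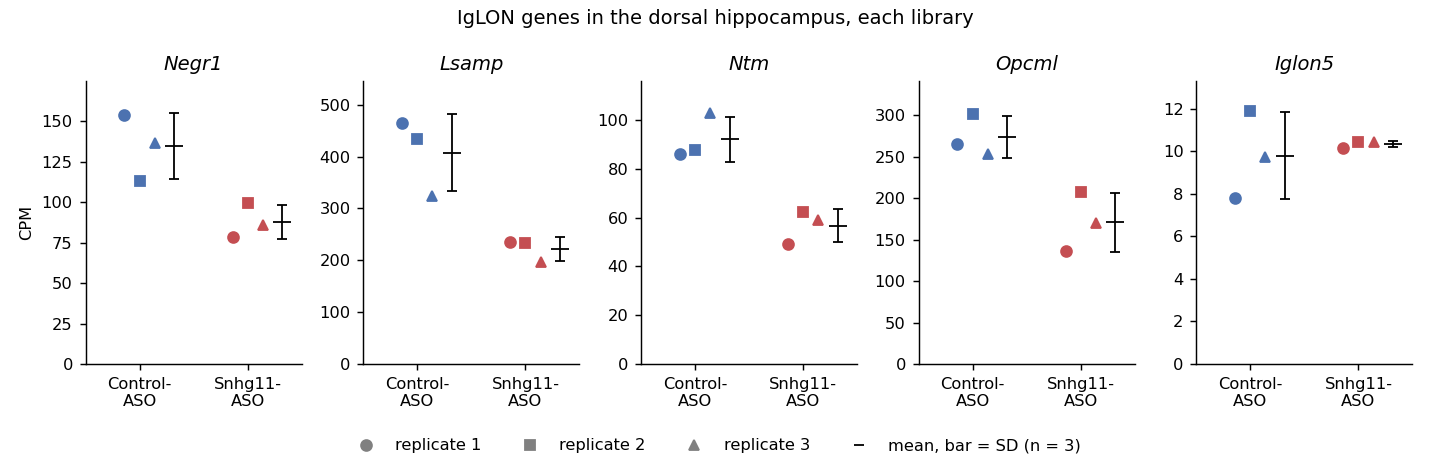
CPM (y axis, from 0, scaled per gene) of the 5 IgLON genes in each library, with Control-ASO in blue and Snhg11-ASO in red, marker shape for the replicate number, and the mean with its SD (n = 3) in black. For Negr1, Lsamp, Ntm and Opcml all red points lie below all blue points; for Iglon5 the red points, at 10.2 to 10.4 CPM, lie inside the blue range of 7.78 to 11.9.

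Without Snhg11-ASO replicate 1, the library that stood apart, the 4 members remained lower. In DESeq2 their log2 fold changes were then -0.54 for Negr1 (adjusted p = 0.0337), -0.93 for Lsamp (3.9e-05), -0.61 for Ntm (1.8e-04) and -0.54 for Opcml (0.00679). A single library did decide a DESeq2 call elsewhere, since Negr1 and Opcml were not called without Snhg11-ASO replicate 3 (adjusted p = 0.150 and 0.135), although their log2 fold changes were then -0.60 and -0.67.

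Levels of different genes were compared per kb of merged exon. In Control-ASO the order was Lsamp at 23.7 ± 4.33 CPM per kb, Opcml at 18.8 ± 1.75, Negr1 at 12.8 ± 1.95, Ntm at 11.4 ± 1.15 and Iglon5 at 3.74 ± 0.783 (SD, n = 3). The ranges of Lsamp and Opcml overlapped, as did those of Negr1 and Ntm. Within each Control-ASO library Lsamp lay above Opcml, at 27.0, 25.2 and 18.8 against 18.3, 20.8 and 17.4 CPM per kb. Negr1 lay above Ntm in Control-ASO replicates 1 and 3 but just below it in replicate 2 (10.8 against 10.9). Opcml lay above Negr1 in every pairing of Control-ASO libraries, and Ntm above Iglon5. With the length of the longest annotated transcript in place of merged exons, Ntm (29.1) stood above Negr1 (27.0). By that length, Lsamp lay below Opcml in Control-ASO replicate 3 (36.8 against 37.9). In Snhg11-ASO the order of the means by merged exons was the same, at 12.9 ± 1.29, 11.8 ± 2.45, 8.37 ± 1.01, 7.02 ± 0.839 and 3.94 ± 0.0552 CPM per kb. Within libraries, however, Opcml lay above Lsamp in Snhg11-ASO replicate 2 (14.3 against 13.6) and replicate 3 (11.7 against 11.4). The ranges of Opcml and Negr1 also overlapped there, with the lowest Opcml library at 9.36 and the highest Negr1 library at 9.45.

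The summed level of the family was 979, 948 and 825 CPM in Control-ASO and 509, 612 and 521 CPM in Snhg11-ASO, without overlap. Lsamp made up 44.1% of the family's counts in Control-ASO and 40.7% in Snhg11-ASO, Opcml 29.9% and 31.0%, Negr1 14.7% and 16.0%, and Ntm 10.2% and 10.4%, and the groups overlapped for each of these shares. The share of Iglon5 was 1.08% in Control-ASO and 1.90% in Snhg11-ASO, with no overlap (exact permutation p = 0.1). The overlap for Lsamp and Opcml rested on Snhg11-ASO replicate 1, at 46.3% and 26.7%. In Snhg11-ASO replicates 2 and 3, Lsamp was at 38.1% and 37.7%, below the lowest Control-ASO library (39.2%). Opcml was at 33.8% and 32.5% there, above the highest Control-ASO library (31.8%). With 3 libraries a group, overlap does not show that the composition of the large members stayed the same.

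The contrast of Negr1 with each other member was read as the log2 ratio of their counts in the same library, in which library size cancels. The ratio of Negr1 to Lsamp was -1.60, -1.93 and -1.24 under Control-ASO and -1.59, -1.23 and -1.19 under Snhg11-ASO. These overlapped, with a difference of 0.25 (exact permutation p = 0.2). For Negr1 to Ntm the values were 0.84, 0.37 and 0.41 under Control-ASO and 0.67, 0.68 and 0.54 under Snhg11-ASO, a difference of 0.09 (exact permutation p = 0.6). All Snhg11-ASO values lay inside the Control-ASO range. For Negr1 to Opcml they were -0.79, -1.41 and -0.89 against -0.79, -1.06 and -0.98, a difference of 0.09 (exact permutation p = 0.9). Here too the Snhg11-ASO values lay inside the Control-ASO range, and without Control-ASO replicate 2 the difference was -0.11. No shift of Negr1 relative to the 3 other large members was thus detectable with 3 libraries a group, which does not show that they shifted alike.

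Negr1 to Iglon5 was the one pair without overlap. The log2 ratio was 4.31, 3.25 and 3.81 under Control-ASO and 2.95, 3.25 and 3.04 under Snhg11-ASO, a difference of -0.71 (exact permutation p = 0.1, the smallest possible; over the 4 pairs no p could pass an adjustment). Replicate 2 of both groups stood at 3.25, so the separation there was at the third decimal. Without Control-ASO replicate 1 the difference was -0.45 (exact permutation p = 0.2). With a correction of each library for its trend with genomic span, it was -0.38 (exact permutation p = 0.4).

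**Figure D2:**
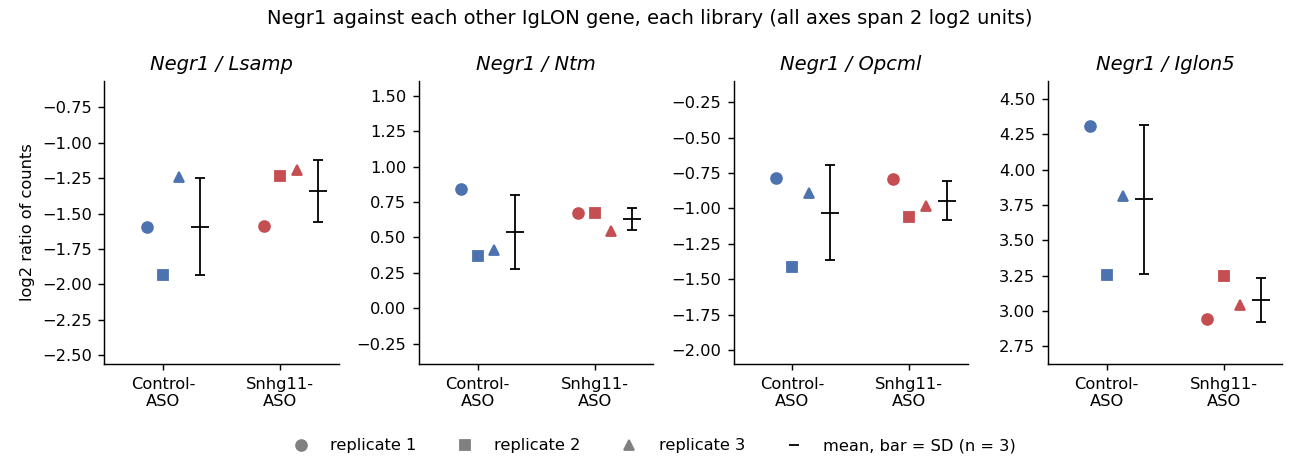
Log2 ratio of the counts of Negr1 to those of each other IgLON gene (y axis, every panel covering the same number of log2 units) in each library, Control-ASO in blue and Snhg11-ASO in red, with the mean and its SD (n = 3) in black. The groups overlap for Lsamp, Ntm and Opcml, while for Iglon5 the Snhg11-ASO points lie at 2.95 to 3.25 and the Control-ASO points at 3.25 to 4.31.

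The 4 members that were lower are also the 4 that span more than 500 kb, so their place among genes of that length was read. The limits of these length classes were set after the values had been seen. The median log2 fold change was 0.02 over 17492 genes under 100 kb, -0.06 over 2230 genes of 100 to 500 kb and -0.37 over 223 genes above 500 kb, of which 201 were lower in Snhg11-ASO. Without the IgLON genes the last median was -0.37 as well, over 219 genes. In that class 56 of 223 genes had a lower log2 fold change than Negr1, 42 than Opcml, 37 than Ntm and 19 than Lsamp. Of the class, 112 genes were lower at an unadjusted p under 0.05, against 4.43% of all genes.

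The lower level of long genes was present in each Snhg11-ASO library. The median difference of the 219 other genes above 500 kb from their Control-ASO mean was -0.40, -0.25 and -0.41 on the log2 scale in Snhg11-ASO replicates 1, 2 and 3, and 0.05, -0.02 and -0.05 in the Control-ASO replicates. Replicate 2 had the smallest shift of the Snhg11-ASO libraries for these genes, and also for Negr1 (-0.43), Ntm (-0.56) and Opcml (-0.40), but not for Lsamp, where replicate 1 (-0.77) had a smaller one than replicate 2 (-0.79). With a correction of each library for its trend with span, the log2 fold changes were -0.31 for Negr1, -0.38 for Lsamp, -0.36 for Ntm, -0.31 for Opcml and 0.05 for Iglon5, with adjusted p from 0.633 to 0.949 in edgeR with Benjamini-Hochberg adjustment. The 219 other long genes then had a median of -0.06. The cause of the trend with span was not tested.

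**Figure D3:**
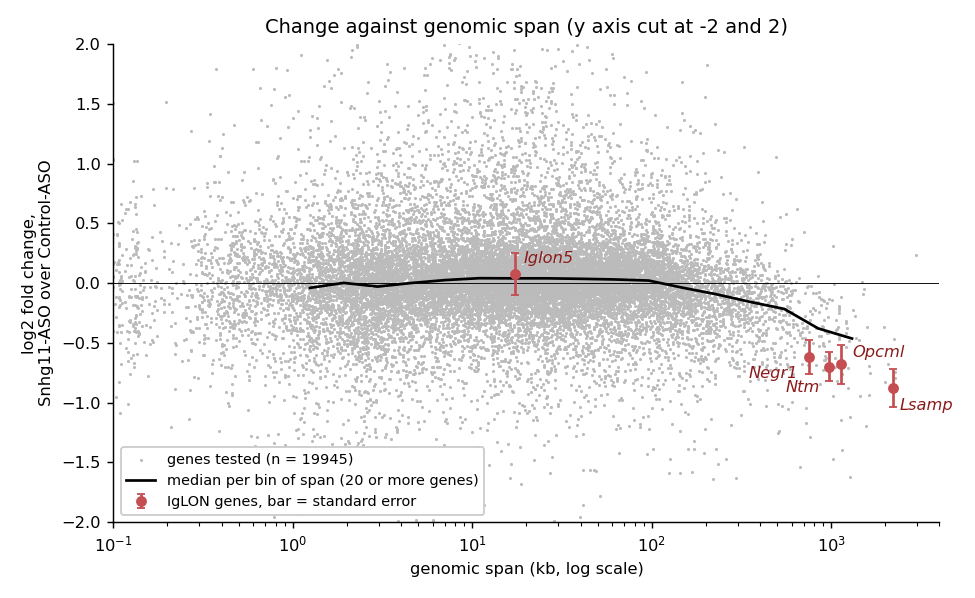
Log2 fold change of Snhg11-ASO over Control-ASO (y axis, limited to the range around 0 that holds all but 131 of 19945 annotated genes) against genomic span in kb (log x axis, on which 169 shorter genes fall outside). Grey points are genes, the black line is the median in bins of at least 20 genes, and the 5 IgLON genes are in red with their SE. The line bends below 0 above 100 kb, Negr1, Ntm and Opcml lie below it, Lsamp lies to the right of its end at -0.88, and Iglon5 lies near 0 at 17.2 kb.

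Because the libraries were made from ribo-depleted total RNA, they also hold unspliced RNA, and the annotation contains small features inside introns of the long members on the same strand. Negr1 has 8 such features with enough counts, the largest being Gm42946, Gm42943 and Gm42942, all of the annotation class TEC, for transcripts without experimental proof. Together they had 42.6, 27.3 and 28.0 CPM in Control-ASO and 18.8, 27.2 and 21.8 CPM in Snhg11-ASO. Each of the 8 was lower by its log2 fold change, and the sums did not overlap, though Control-ASO replicate 2 and Snhg11-ASO replicate 2 were nearly level. The log2 ratio of the means was -0.53 (exact permutation p = 0.1), -0.42 when Snhg11-ASO replicate 1 was left out and -0.29 when Control-ASO replicate 1 was. As a percentage of the exonic counts of Negr1, the features made up 24.1% ± 3.57 in Control-ASO and 25.6% ± 1.68 in Snhg11-ASO (SD, n = 3), with overlap.

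Opcml holds Gm15606 and the miRNA gene Gm44316 in its introns. Their sum was 9.69, 9.30 and 8.70 CPM in Control-ASO and 4.77, 7.39 and 6.69 CPM in Snhg11-ASO. All Snhg11-ASO values were lower (log2 ratio -0.55), and the percentage of the exonic counts overlapped between groups, at 3.39% and 3.68%. In Ntm the intronic transcript Gm15521 had 3.06, 2.62 and 2.70 CPM in Control-ASO and 0.787, 1.60 and 1.37 CPM in Snhg11-ASO. Its log2 ratio of -1.15 was larger than that of the exons of Ntm, and its percentage of the exonic counts was 3.06% in Control-ASO and 2.17% in Snhg11-ASO without overlap (exact permutation p = 0.1), on 30 to 91 counts a library.

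In Lsamp, the intronic features Gm36939 and Gm22543 had 10.8, 8.83 and 7.36 CPM in Control-ASO and 5.19, 9.19 and 7.76 CPM in Snhg11-ASO. The groups overlapped (log2 ratio -0.29, exact permutation p = 0.5), and without Snhg11-ASO replicate 1 the ratio was -0.09. Against the exonic counts of Lsamp they made up 2.20% in that library but 3.94% and 3.96% in Snhg11-ASO replicates 2 and 3, where all Control-ASO libraries lay at 2.04% to 2.32% (exact permutation p = 0.3 over all 6). Whether such features stand for unspliced host RNA was not tested. Iglon5 holds no such feature.

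**Figure D4:**
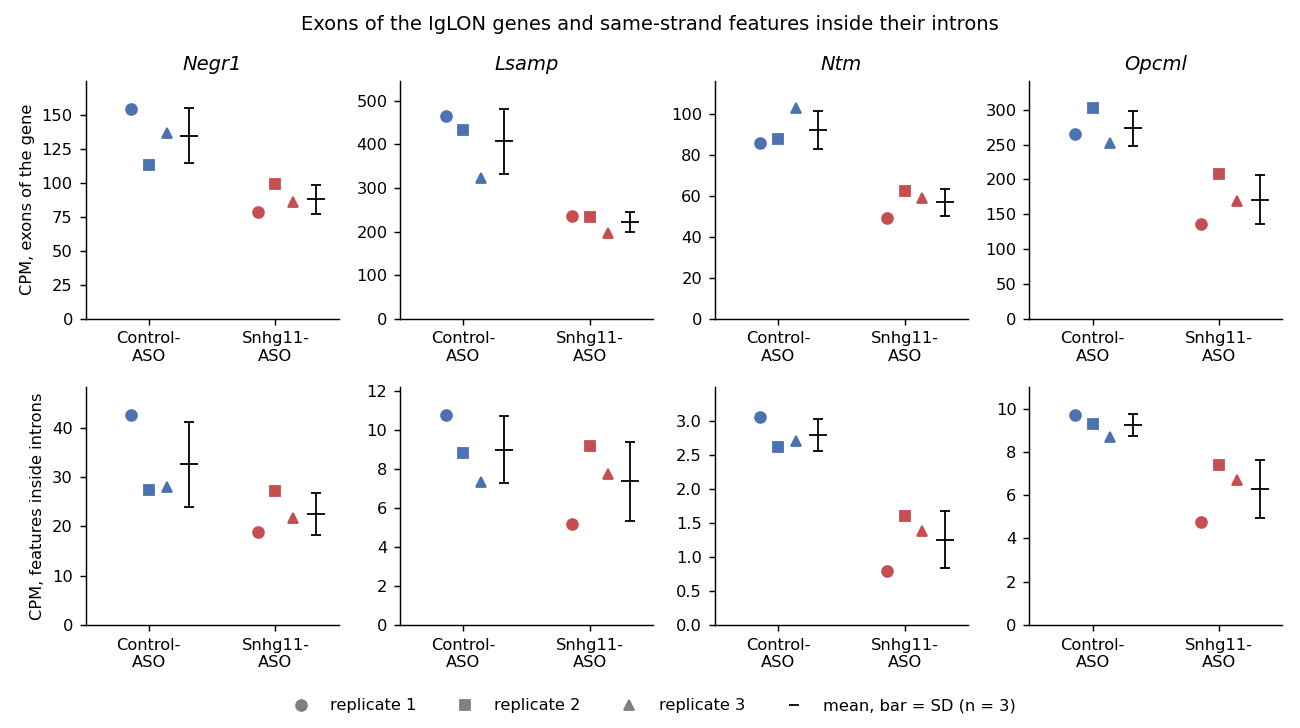
CPM in each library (y axes, from 0) of the exons of Negr1, Lsamp, Ntm and Opcml (top) and of the annotated same-strand features inside their introns (bottom), Control-ASO in blue and Snhg11-ASO in red, with the mean and its SD (n = 3). The intronic sums of Negr1, Ntm and Opcml lie lower in Snhg11-ASO, and those of Lsamp overlap between groups.

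Reads on the opposite strand took a small share of each locus. They made up 0.0482% to 0.183% of the strand-resolved counts of Negr1, on 2 to 7 counts a library, and 0.110% to 0.233% of those of Lsamp. The share of Opcml was 0.204%, 0.343% and 0.234% under Control-ASO and 0.614%, 0.506% and 0.698% under Snhg11-ASO, higher without overlap (exact permutation p = 0.1) on 16 to 52 counts. Its exonic counts, which form most of the denominator, were lower in Snhg11-ASO, and the opposite-strand counts as CPM overlapped between groups (difference 0.285 CPM, exact permutation p = 0.2). The share of Ntm was 1.19% in Control-ASO and 0.895% in Snhg11-ASO, lower without overlap (exact permutation p = 0.1). Iglon5 had 0 to 4 such counts.

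The start regions of the members differ in base composition. RefSeq promoter windows on GRCm38.p6, 300 bases that end 50 bases after a start, were at hand for all 5 genes, with 2 starts each for Lsamp and Ntm. The window of Negr1 and that of Iglon5 are shown with each CG dinucleotide in capitals, since these 2 genes gave the one separated ratio. Negr1 lies at chr3:156561544-156561843 on the plus strand and Iglon5 at chr7:43490162-43490461 on the minus strand.
Negr1: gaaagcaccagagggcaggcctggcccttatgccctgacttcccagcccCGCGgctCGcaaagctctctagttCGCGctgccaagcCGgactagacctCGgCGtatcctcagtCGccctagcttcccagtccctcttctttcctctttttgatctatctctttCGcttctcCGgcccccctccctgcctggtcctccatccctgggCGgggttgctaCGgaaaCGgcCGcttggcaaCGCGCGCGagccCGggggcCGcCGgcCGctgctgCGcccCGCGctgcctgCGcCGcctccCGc
Iglon5: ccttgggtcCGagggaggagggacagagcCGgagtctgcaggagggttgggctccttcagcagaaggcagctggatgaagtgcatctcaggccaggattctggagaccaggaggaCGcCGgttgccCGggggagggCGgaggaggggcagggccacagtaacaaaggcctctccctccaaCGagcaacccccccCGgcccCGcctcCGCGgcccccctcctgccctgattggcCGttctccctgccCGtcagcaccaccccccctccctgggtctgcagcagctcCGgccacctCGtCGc
Negr1 held 29 CG, more than 87.1% of the 32851 windows of all genes, whose median was 7. Iglon5 held 16, the windows of Lsamp 12 and 3, those of Ntm 2 and 19, and that of Opcml 9. The letters TATAAA, searched on both strands and present in 13.6% of the windows of all genes, were in none of these 7. The windows of the 4 members that were lower held 2 to 29 CG, against 16 in Iglon5. Both windows of Ntm lie inside the gene, away from its annotated start at chr9:29963141. A relation of base composition to the changes was not tested.

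Genes that act with the IgLON proteins were read from 3 lists. Of 19 genes for shedding and binding partners, 18 were tested, 2 were lower and 2 higher at an unadjusted p under 0.05 (4.43% and 3.68% of all genes tested), and the median log2 fold change was 0.01, the same as over all genes tested. Ncam1, a neural adhesion molecule with immunoglobulin domains, had 297, 246 and 224 CPM in Control-ASO and 159, 168 and 152 CPM in Snhg11-ASO. The groups did not overlap (log2 fold change -0.68, SE 0.12; adjusted p = 0.308 in edgeR and 7.6e-04 in DESeq2). Gdpd5, a phosphodiesterase that can cleave GPI anchors, had a log2 fold change of -0.46, and Fgfr2, a fibroblast growth factor receptor, of 0.24. Timp1, an inhibitor of metalloproteinases, had 4.28, 5.95 and 2.17 CPM in Control-ASO and 55.5, 7.56 and 9.99 CPM in Snhg11-ASO, so its log2 fold change of 2.56 was mostly that of replicate 1. Adam10, a sheddase of Negr1, had a log2 fold change of 0.01 (SE 0.09; adjusted p = 0.981 in edgeR).

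Of 31 genes that build, attach or remodel GPI anchors, which every IgLON protein needs, all were tested, 1 was lower at an unadjusted p under 0.05 and 0 were higher, near the 4.43% and 3.68% of all genes tested, with a median log2 fold change of -0.02. The 1 lower gene was Tmem246, which adds a sugar to the anchor, at -0.30 (SE 0.12; adjusted p = 0.586 in edgeR).

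Of 30 other neuronal adhesion genes with immunoglobulin domains, all tested, 22 had a negative log2 fold change, as did 9653 of the 19969 genes tested. At an unadjusted p under 0.05, 10 were lower and 0 higher (4.43% and 3.68% of all genes), and DESeq2 called 1 as lower (0.816% of all genes). The median log2 fold change was -0.17, against -0.68 over the 5 IgLON genes and 0.01 over all genes tested. Cntn4, a GPI-anchored contactin, had 33.4, 38.0 and 35.6 CPM in Control-ASO and 9.91, 13.9 and 14.7 CPM in Snhg11-ASO. Its log2 fold change was -1.47 (SE 0.17; adjusted p = 0.237 in edgeR and 2.2e-10 in DESeq2), and its groups were far apart. The contactins Cntn3 and Cntn5 were at -0.68 and -0.88, and Cadm1, a synaptic adhesion molecule, at -0.70, all without overlap. These contactins and Cadm1 are also long, at 1022 kb for Cntn4, 1244 kb for Cntn5, 410 kb for Cntn3 and 327 kb for Cadm1. Of the 10 genes lower at an unadjusted p under 0.05, L1cam alone was short, at 42.3 kb (log2 fold change -0.61, without overlap). The other genes among these 10 spanned 327 kb or more. Of that length, Kirrel3 (551 kb) and Dscaml1 (327 kb) were at -0.56 and -0.22, with overlapping groups. Nrcam (273 kb) and Chl1 (240 kb) were at -0.07 and 0.03, with overlapping groups. The part of length in these values was not tested.

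**Figure D5:**
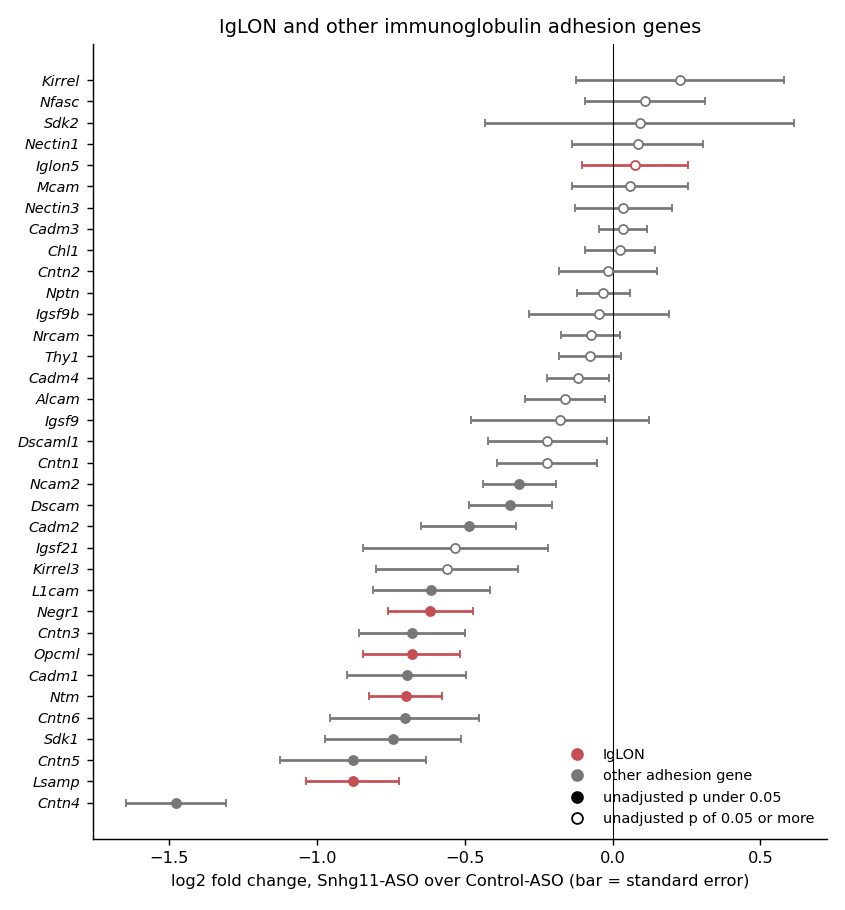
Log2 fold change of Snhg11-ASO over Control-ASO with its SE (x axis) for the 5 IgLON genes (red) and 30 other neuronal adhesion genes with immunoglobulin domains (grey), in order of the change, filled where the unadjusted edgeR p was under 0.05. Lsamp, Ntm, Opcml and Negr1 stand among the lowest, between -0.88 and -0.62, with Cntn4 at -1.47 below them and Iglon5 at 0.08.

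The genes most like each member were found among 9812 genes with a mean of at least 10 CPM, as those with the smallest root-mean-square difference in centred log2 CPM over the 6 libraries, a description of 6 points with the same 2 groups. For Negr1 these were Rab36 (0.0611), A230057D06Rik (0.0664), Pak3 (0.0740), Klf12 (0.0839) and 5330434G04Rik (0.0846). Its own relatives came later, with Ntm in place 145, Opcml in 372, Lsamp in 1046 and Iglon5 in 7735. Lsamp was nearest to Mdm4, Apba1, Ncam1, Nrxn3 and Macrod2, and Ntm to Tarsl2, Galnt13, Limk1, AC156546.1 and Glt1d1. Opcml was nearest to Dmd, Gm44433, Dgkb, Cdh12 and Cacna2d1, and Ntm stood in place 50 for it. The neighbours of Iglon5 were Pcdhgb2, Acadl, Mfsd4a, Nln and Car7. No IgLON gene was thus among the 5 nearest of another.

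Markers of the cell types in the dissected tissue were read beside these values, as summed CPM over 13 lists, none of which was at 0. Excitatory neuron markers (5 of 5 detected) summed to 1653 to 2210 CPM in Control-ASO and 1809 to 2042 in Snhg11-ASO, and dentate granule cell markers (5 of 5) to 274 to 332 and 292 to 381. Interneuron markers (6 of 6) summed to 411 to 453 CPM in Control-ASO and 340 to 388 in Snhg11-ASO, without overlap and with all 6 lower, 2 of them at an unadjusted p under 0.05. Over all genes tested, 9653 of 19969 had a negative log2 fold change. At an unadjusted p under 0.05 in edgeR, 4.43% of all genes were lower and 3.68% higher. Oligodendrocyte precursor markers (5 of 5, all lower by log2 fold change) summed to 145 to 172 and 73.4 to 157 CPM. Oligodendrocyte markers went the other way, with 6 of 6 higher by log2 fold change (median 0.28), as did ependyma markers, with 4 of 4 higher (median 0.56), and fibroblast and meninges markers had a median of -0.37, all with overlapping sums and with 0 genes at an unadjusted p under 0.05. Choroid plexus markers (6 of 6) summed to 1887, 36.4 and 1221 CPM in Control-ASO replicates 1, 2 and 3. In Snhg11-ASO replicates 1, 2 and 3 they summed to 1296, 123 and 67.4 CPM, so the spread was as wide within groups as between them. All 6 were lower in Snhg11-ASO by log2 fold change (median -0.70), with 0 at an unadjusted p under 0.05. The part of any of these cell types in the IgLON values was not tested.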

How the data were processed

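Stranded libraries from ribo-depleted total RNA were sequenced as 50-base pairs. The authors aligned reads with STAR 2.5.2a to mm10 (GRCm38) and deposited raw counts of read pairs per gene, without normalization. The study's methods name Rsubread, while the deposited layout is that of STAR. Reverse-strand counts were used (96.2% to 96.8% of stranded counts). Lines naming no gene held 43.5% to 51.4% of pairs and were left out. GENCODE M21 matched 55141 of 55401 identifiers.

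Genes passed filterByExpr at a minimum count of 10, TMM factors scaled the libraries, and the groups were compared in edgeR 4.0.16 (quasi-likelihood test, R 4.3.3) with Benjamini-Hochberg adjustment at 0.05 over all 19969 genes tested. DESeq2 1.42.0 was an alternative, as were other scalings, filters, both strands, offsets for the trend with genomic span, a replicate block and leaving out each library. The study removed 1 Snhg11-ASO sample that its text does not name, and all 6 were kept here. Single values were compared with exact two-sided permutation tests (scipy 1.17.1).

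Deviations of same-numbered samples correlated at 0.297, 0.179 and 0.104. As each exceeded 0.1, pairing by replicate number was tried as an alternative, the replicate block. That pairing was read from the values, and no label states it. The main fit and the exact permutation tests printed here did not pair samples. The labels do not say that samples are separate mice, so p-values measure the spread between these samples. The members and lists were chosen with earlier results of these data known. Genes named are the members, Snhg11, up to 4 genes per list by smallest p under 0.05, the 5 nearest genes by likeness and up to 3 overlapping genes per member. Adam10, L1cam, Kirrel3, Dscaml1, Nrcam and Chl1 were named after their values were seen.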

Additional observations from a re-analysis of the deposited data

How the results depend on the processing

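Negr1, Lsamp, Ntm and Opcml kept their lower direction under all 18 alternatives, and none was called by edgeR under any. The adjusted p over these alternatives was 0.0212 to 0.979 for Negr1, 3.9e-05 to 0.951 for Lsamp, 1.8e-04 to 0.951 for Ntm, 0.00134 to 0.979 for Opcml and 0.833 to 0.992 for Iglon5. DESeq2 called 256 genes, with log2 fold changes of -0.61 for Negr1, -0.88 for Lsamp, -0.70 for Ntm, -0.68 for Opcml and -2.12 for Snhg11. In DESeq2 without Snhg11-ASO replicate 1, 2 or 3 the counts of calls were 339, 275 and 213. The corresponding log2 fold changes were -0.93, -0.92 and -0.79 for Lsamp, -0.61, -0.77 and -0.72 for Ntm, and -2.57, -1.94 and -1.96 for Snhg11. Negr1 (-0.54 and -0.71) and Opcml (-0.54 and -0.84) were called without replicate 1 or 2 only.

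Leaving out each library in turn, edgeR called 0 to 2 genes, the 2 without Snhg11-ASO replicate 1, and gave log2 fold changes of -0.73 to -0.52 for Negr1, -1.02 to -0.78 for Lsamp, -0.77 to -0.61 for Ntm, -0.84 to -0.54 for Opcml, -0.07 to 0.24 for Iglon5 and -2.56 to -1.83 for Snhg11. The log2 ratio differences ranged from 0.08 to 0.43 for Negr1 to Lsamp, 0.01 to 0.24 for Negr1 to Ntm, -0.11 to 0.21 for Negr1 to Opcml and -0.98 to -0.45 for Negr1 to Iglon5. Iglon5 turned to -0.073 without Control-ASO replicate 1 and Negr1 to Opcml to -0.11 without Control-ASO replicate 2, and the cause was not tested.

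With the replicate number as a block, the log2 fold changes were -0.61 for Negr1 (adjusted p = 0.484 in edgeR), -0.87 for Lsamp (0.350), -0.70 for Ntm (0.426), -0.70 for Opcml (0.426), 0.10 for Iglon5 (0.870) and -2.10 for Snhg11 (0.350), and the block changed no call. Opposite-strand CPM, in place of shares, gave a difference of -0.0347 for Negr1 and -0.162 CPM for Lsamp, where the shares were higher in Snhg11-ASO. The lower exonic counts of both genes form the denominator of those shares. Levels per kb of the longest transcript were 27.0 for Negr1, 46.3 for Lsamp, 29.1 for Ntm and 41.0 for Opcml in Control-ASO, since that length is shorter than the merged exons.

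With 3 libraries a group an exact test cannot pass 0.05. The 229 to 455 counts of Iglon5 limit its precision more than those of the other members.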
